A study of Danio rerio with 20 samples.

Results

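The data described here are 200 probes of a zebrafish expression array that were brightest, relative to later stages, in wild type (WT) embryos at 28 hours post fertilisation (hpf). They were chosen on the WT arrays alone. For each of the 43603 probes in the deposited table, the score was the mean log2 intensity of WT embryos at 28 hpf minus the higher of the WT means at 3 days post fertilisation (dpf) and in adult brain, and the 200 highest scores were taken. The samples were whole *rnaset2* mutant embryos at 28 hpf (4 arrays) with WT siblings (4 arrays), mutant embryos at 3 dpf (3 arrays) with WT siblings (3 arrays), and dissected whole brains of mutant fish at 1 year (3 arrays) with WT siblings (3 arrays). The study's methods name the allele as *rnaset2* AO127, made by chemical mutagenesis, and describe each embryo sample as a pool. The study speaks of biological repeats at each time point, and its methods state that all experiments were repeated on different batches of larvae. No source states which arrays come from separate clutches or fish. The p-values therefore cover only array-to-array spread, part of which may be technical. The labels give the youngest stage as hours in one field and as days in another, and 28 hpf, which the methods also use, was kept.

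At 28 hpf a zebrafish embryo has laid down its body plan, and its organ primordia are still dividing and differentiating. By 3 dpf most embryos have hatched and many organs work, and at 1 year the brain is mature. Transcripts that are high at about 1 day and low later are known to include those of progenitor cells, of the hatching gland and of the first wave of blood. Which of these the 200 probes measure is not known here, because no table used here pairs the probes with genes. No gene is therefore named, no marker of brain or embryo was checked, the expression of *rnaset2*, which encodes a lysosomal ribonuclease, is not given, and no sequence is shown. Adult brain was set against whole embryos, so stage and tissue cannot be told apart in comparisons with adult brain.

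The scores that chose the probes ran from 7.31, a 159-fold excess at 28 hpf, to 2.40, a 5.28-fold excess. The probe in place 100 had a score of 2.84. There was no gap at the limit, since places 199 to 202 had scores of 2.405, 2.401, 2.401 and 2.400. The runner-up stage was 3 dpf for 166 of the 200 probes and adult brain for 34. All of these values are the choice itself and are given as a description. On single arrays, the 4 WT arrays at 28 hpf all lay above the 6 other WT arrays for 198 of the 200 probes. These same arrays chose the probes, so this count also follows largely from the choice. The share of all probes for which they did was not computed.

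Levels in WT covered nearly the whole scale of the array, with means at 28 hpf between 15.4 and 354000 in intensity and a median of 267.4. At 3 dpf the WT median was 29.5 and in adult brain 9.84, against 257.7 or 257.8 for all probes on any array. An intensity under 10 lies close to the lowest value of the table, 2.14. Of the 200 probes, 69 had a WT mean under 10 at 3 dpf and 101 in adult brain, and 64 were under 10 at both. For these the score depends on where the bottom of the scale lies. How many of the dim probes exceed the background of the array was not measured here.

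Mutant arrays played no part in the choice, so the stage pattern within mutants is a separate measurement. The median intensity of the 200 probes in mutants was 190.5 at 28 hpf, 22.7 at 3 dpf and 10.4 in adult brain, with 14, 76 and 100 probes under 10. Most probes were highest at 28 hpf in mutants too. Of the 200, 169 were higher at 28 hpf than at 3 dpf and 181 were higher than in adult brain (limma, adjusted p under 0.05 over all probes). Of all probes, 42.0% and 40.0% were. Above both later stages at once were 166 of the 200 (83%), against 28.4% of all probes. The median excess of the 200 probes at 28 hpf over 3 dpf was 3.31 on the log2 scale in mutants and 2.88 in WT, and over adult brain 4.14 in mutants and 4.26 in WT. In mutants, the 4 arrays at 28 hpf all lay above the 6 other mutant arrays for 170 probes. The share of all probes for which they did was not computed.

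**Figure D1:**
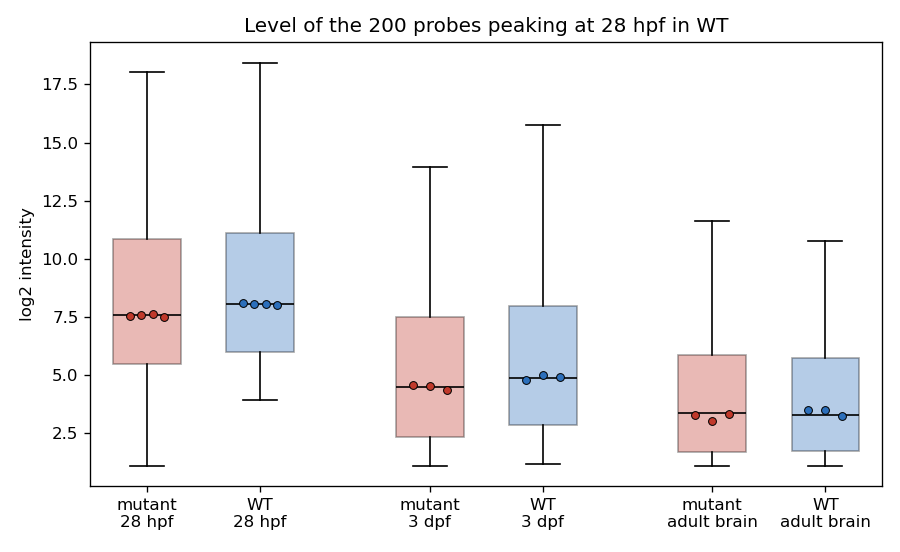
Log2 intensity (vertical axis) of the 200 probes in mutants (red) and WT siblings (blue) at 28 hpf, 3 dpf and in adult brain. Boxes show the quartiles of the probes' group means with the median as a line and whiskers to the extremes, and each point is the median of the 200 probes on 1 array. The points of mutants lie between 7.49 and 7.61 at 28 hpf, below those of WT between 8.00 and 8.12.

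The probes in the first places show the pattern array by array. The probe in place 1 had intensities of 282, 342, 289 and 275 in mutants at 28 hpf, against 786, 775, 594 and 665 in WT siblings. At 3 dpf it read 3.28, 8.38 and 2.59 in mutants and 3.28, 4.98 and 5.20 in WT siblings, and in adult brain 4.61, 2.54 and 2.75 in mutants and 2.74, 2.53 and 12.4 in WT siblings. It was thus bright in both genotypes at 28 hpf and near the bottom of the scale afterwards. The genotypes did not overlap at 28 hpf (-1.24, adjusted p = 0.035 from limma). The WT arrays that gave this probe the highest score also enter that comparison, so its p-value is a description.

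The probe in place 2 had 1260, 1340, 1200 and 1240 in mutants at 28 hpf and 1530, 1380, 1660 and 1570 in WT siblings. By 3 dpf its intensity was 3.28, 3.84 and 2.52 in mutants and 9, 9.46 and 15.6 in WT siblings. The arrays of the genotypes did not overlap at either embryonic stage, and limma called the difference at 3 dpf (-1.79, adjusted p = 2.6e-05) but not at 28 hpf (-0.28, adjusted p = 0.37). The fit gave each probe the same spread at all stages, so the result at 28 hpf also rests on the spread at the later stages. The probe in place 3 had 2160, 2120, 2100 and 1720 in mutants at 28 hpf and 1590, 1650, 1550 and 1560 in WT siblings. Its 28 hpf arrays did not overlap, and limma did not call the difference (0.35, adjusted p = 0.21). Its 3 dpf arrays overlapped, with 27.6, 15 and 16 in mutants and 16.7, 32.6 and 28.6 in WT siblings. The WT arrays that ranked the probes in places 2 and 3 also enter these comparisons, so their p-values are a description.

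**Figure D2:**
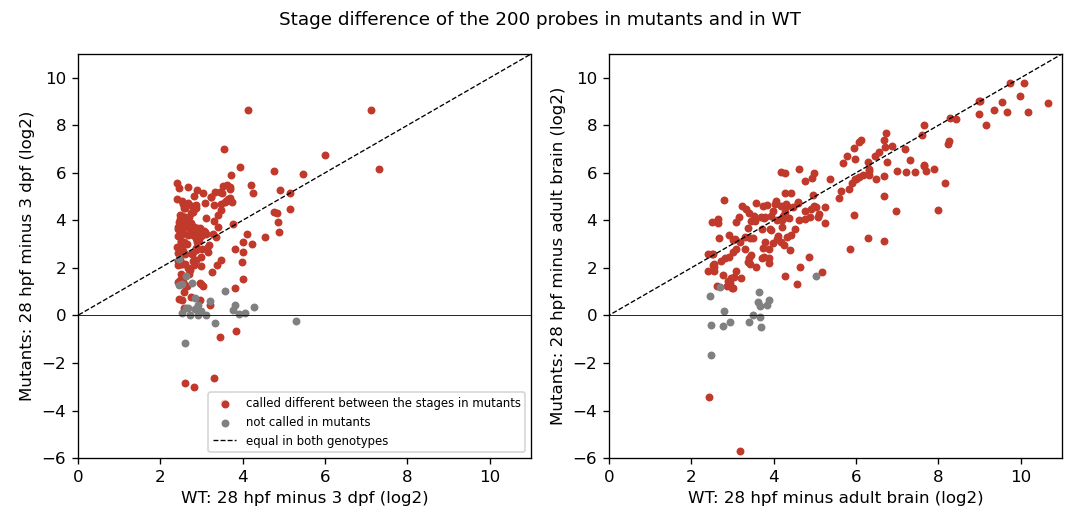
Each point is 1 of the 200 probes. The horizontal axis gives the log2 difference between 28 hpf and 3 dpf (left) or adult brain (right) in WT, which chose the probes, and the vertical axis the same difference in mutants; red points were called different between the stages in mutants (limma, adjusted p under 0.05), and the dashed line marks equal differences. Most points lie above 0 in mutants, with 169 called higher at 28 hpf than at 3 dpf and 181 than in adult brain.

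In 34 probes the excess at 28 hpf was not called against both later stages in mutants. They had a median intensity of 14.7 in mutants and 59.0 in WT siblings at 28 hpf. A low mutant level at 28 hpf or a high one later put a probe among these 34, so their differences between genotypes follow in part from the sorting and are a description. The median difference, mutant minus WT, was -2.03 at 28 hpf and 0.77 at 3 dpf. Of the 34, 25 were called lower in mutants at 28 hpf (15.8% of all probes were) and 16 higher at 3 dpf (23.0% of all probes were). In 17 of them the score computed on mutants was 0 or below. For 6 probes the order was turned round, with the 28 hpf level called below the 3 dpf level in mutants, and for another 2 it was called below the adult brain level. Over all 43603 probes these calls numbered 12418 and 18512. The 4 WT arrays at 28 hpf spanned over 2 log2 units for 6 probes, and the share of all probes for which they did was not computed. One of the 6, in place 33, had a mean intensity of 15717 with an SD of 31329 in WT siblings at 28 hpf. None of the 6 was called above both later stages in mutants. Without these 6 the median mutant minus WT difference was -0.41 at 28 hpf and -0.58 at 3 dpf.

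Between the genotypes at 28 hpf, the 200 probes lay lower in mutants. The median mutant minus WT difference was -0.44 on the log2 scale, against 0.01 over all probes, and 149 of the 200 probes had a negative difference. Lower in mutants were 85 probes (limma, adjusted p under 0.05 over all probes), or 42.5%, against 15.8% of all probes, and 15 were higher, or 7.5%, against 18.7% of all probes. Of the 85, 53 were lower by at least 2-fold and 11 by at least 8-fold, against 1066 and 77 of all 43603 probes. All mutant arrays lay below all WT arrays for 115 probes (20.4% of all probes did) and above them for 30 (22.7% of all probes did).

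The choice bears on this comparison. A WT mean at 28 hpf that is high by chance helps a probe into the list and also lowers its mutant minus WT difference. The list was therefore also drawn up on WT arrays 1 and 1.1 alone, and mutants were compared with WT arrays 2 and 3, which had no part in that choice. Array 1.1 exists at 28 hpf only, so at each later stage that choice rests on 1 WT array. This list shared 160 probes with the main one. Its median score shrank to 2.73 in the WT arrays not used, against 2.99 in those that chose it, and the score stayed above 0 for 194 of 200 probes. Against the unused WT arrays at 28 hpf, 63 probes were lower in mutants (12.3% of all probes were) and 12 higher (14.1% of all probes were), with a median difference of -0.33.

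A list chosen on WT also favours probes whose WT level at 28 hpf is above that of mutants for any lasting reason, which unused arrays do not remove. A list chosen on the mean of both genotypes treats them alike. It shared 121 of its 200 probes with the main list. At 28 hpf 59 of its probes were lower in mutants (29.5%, against 15.8% of all probes) and 23 higher (11.5%, against 18.7% of all probes), with a median difference of -0.23. Of the 59, 24 were lower by at least 2-fold and 1 by at least 8-fold, and of the 23, 9 were higher by at least 2-fold. Of all 43603 probes, 1066, 77 and 1121 were. When the mutant arrays chose the list, which shared 93 probes (46.5%) with the main one, 52 were lower (26%) and 30 higher (15%, close to the share of all probes), and the median difference was -0.12. Of the 52, 23 were lower by at least 2-fold and 1 by at least 8-fold, and of the 30, 13 were higher by at least 2-fold. The median difference at 28 hpf was thus below 0 under each of these choices, and its size moved with the arrays that chose the probes.

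**Figure D3:**
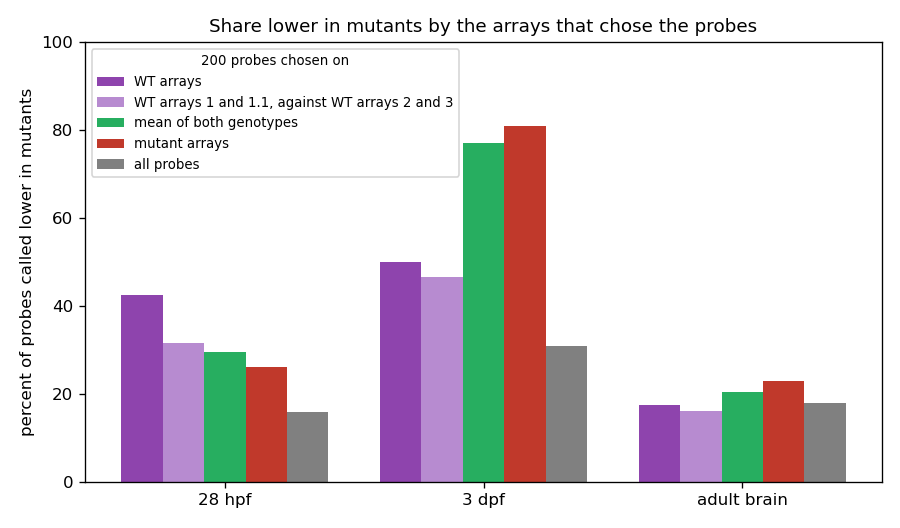
Percent of probes called lower in mutants (limma, adjusted p under 0.05) at each stage, for 200 probes chosen on all WT arrays, on WT arrays 1 and 1.1 with the test against WT arrays 2 and 3, on the mean of both genotypes and on mutant arrays, and for all 43603 probes (grey). At 3 dpf the shares are 50%, 46.5%, 77% and 81%, against 30.8% of all probes in the fit to all arrays and 28.2% in the fit without WT arrays 1 and 1.1.

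At 3 dpf the probes were lower in mutants again, although here the choice pulls the other way, since a low WT mean at 3 dpf helps a probe into the list and raises its mutant minus WT difference. The median difference was -0.58, against -0.08 over all probes, and 142 of 200 probes had a negative difference. Lower in mutants were 100 probes (50%), against 30.8% of all probes. Of the 100, 71 were lower by at least 2-fold, against 2443 of all 43603 probes. Higher were 32 probes (16%), against 23.0% of all probes. Of the 32, 28 were higher by at least 2-fold, against 3349 of all 43603 probes. Rises of at least 2-fold were thus more frequent among the 200 probes than among all probes, but the choice favours such rises, so this is a description. In the list chosen on the mean of both genotypes 5 of the 200 probes rose by at least 2-fold. In the list chosen on mutants, where the choice works against rises, 1 did. The arrays did not overlap for 104 probes that were lower in mutants (36.0% of all probes) and for 37 that were higher (27.4% of all probes).

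In mutants the probes retained a median of 10.1% of their 28 hpf intensity at 3 dpf (quartiles 5.00% and 34.7%), and in WT siblings 13.6% (quartiles 9.07% and 16.5%). The choice set a floor on the fall in WT only, and its part in the wider spread in mutants was not tested. Against unused WT arrays 93 probes were lower in mutants at 3 dpf (28.2% of all probes) and 28 higher (21.4% of all probes), with a median difference of -0.64. For the list chosen on the mean of both genotypes the median was -1.34, with 154 probes lower (77%) and 7 higher (3.5%). For the list chosen on mutants, where the choice pulls the difference down, it was -1.56, with 162 lower (81%) and 3 higher (1.5%), against 30.8% and 23.0% of all probes.

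The falls at 3 dpf were counted by brightness, and 30.8% of all probes were lower and 23.0% higher there. Of the 67 brightest probes at 28 hpf in WT (1140 to 354000), 49 were lower in mutants at 3 dpf (73.1%) and 5 higher (7.46%), with a median difference of -1.07. Of the 66 in the middle (92.1 to 1110), 34 were lower (51.5%) and 12 higher (18.2%), with a median of -0.69. Of the 67 dimmest (15.4 to 85.8), 17 were lower (25.4%) and 15 higher (22.4%), with a median of -0.10, so that neither share exceeded that of all probes. At 28 hpf 27, 31 and 27 probes were lower in mutants in the same order (40.3%, 47% and 40.3%, against 15.8% of all probes). Dim probes lie near the bottom of the scale at 3 dpf, which leaves little room for a lower reading, and its part in this order was not tested.

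**Figure D4:**
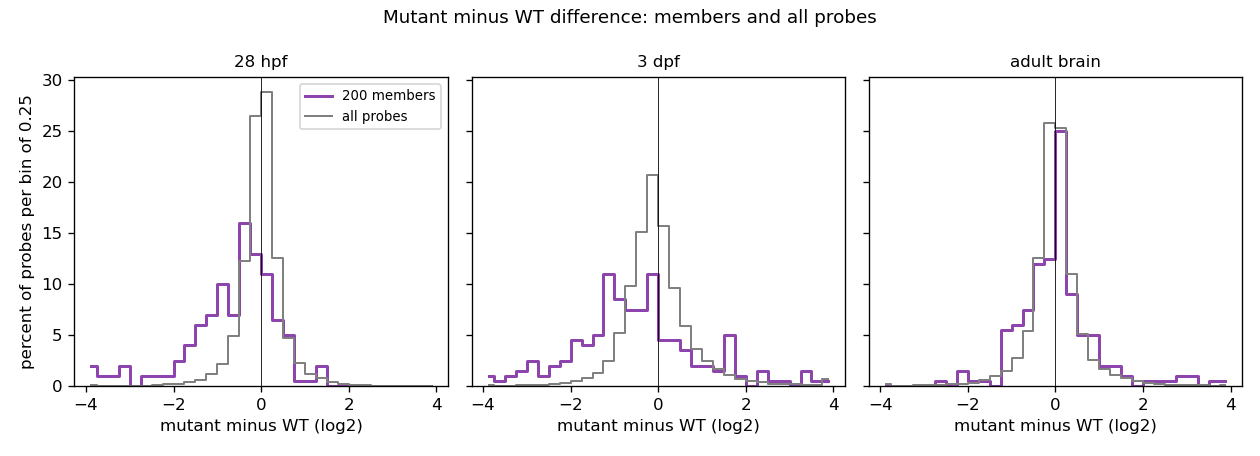
Mutant minus WT difference on the log2 scale (horizontal axis) against the percent of probes in each bin of 0.25 (vertical axis), for the 200 probes (purple) and all probes (grey) at 28 hpf, 3 dpf and in adult brain. The outermost bins also hold the values beyond them. The purple curve lies to the left of the grey one at 28 hpf (medians -0.44 and 0.01) and 3 dpf (-0.58 and -0.08), while in adult brain the medians are 0.02 and -0.01.

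In adult brain the 200 probes were called higher and lower in mutants in shares close to those of all probes. The median difference was 0.02, against -0.01 over all probes. Higher in mutant brains were 30 probes (17.6% of all probes were) and lower were 35 (17.8% of all probes were). By at least 2-fold 15 were higher and 14 lower, against 1957 and 1610 of all 43603 probes. Of the 67 brightest probes 16 were higher and 16 lower (23.9% each). Of the 66 in the middle 8 were higher (12.1%) and 16 lower (24.2%), and of the 67 dimmest 6 (8.96%) and 3 (4.48%). Means in adult brain were under 10 for 100 probes in mutants and 101 in WT, and the part of this was not tested. The arrays did not overlap for 32 probes that were higher (20.1% of all probes) and 24 that were lower (19.7% of all probes). Against the unused WT arrays 28 probes were higher (15.8% of all probes) and 32 lower (16.0% of all probes), again close to the shares of all probes. With the adult arrays fitted alone, 18 were higher and 14 lower. Without mutant adult brain replicate 3, 22 were lower. The shares of all probes in these fits were not computed, so these counts cannot be set against the shares above.

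The calls at the embryonic stages fell on partly different probes. They rest on a spread shared by all stages. With each stage fitted alone, 29 probes were higher and 117 lower at 28 hpf, against 15 and 85. At 3 dpf 37 were higher and 95 lower, against 32 and 100. The share of all probes and the joint calls were not counted in those fits. Lower in mutants at both were 43 probes (7.63% of all probes were), with a median difference of -0.92 at 28 hpf and -1.17 at 3 dpf. Another 54 were lower at 3 dpf and not called at 28 hpf (19.1% of all probes were). The calls that sorted these 54 also fix their levels, which are given as a description, with a median of 886 in mutants and 958 in WT siblings at 28 hpf, and 35.9 in mutants and 94.9 in WT siblings at 3 dpf. A further 26 were lower at 28 hpf and not called at 3 dpf (5.34% of all probes were), with 42.2 in mutants and 104 in WT siblings at 28 hpf.

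For 16 probes the call changed direction, lower in mutants at 28 hpf and higher at 3 dpf (2.83% of all probes were). Their median level, again fixed in direction by the calls, was 28.6 in mutants and 81.7 in WT siblings at 28 hpf, and 78.4 in mutants and 9.11 in WT siblings at 3 dpf. The remaining calls were fewer. Higher in mutants at 3 dpf and not called at 28 hpf were 10 probes (12.6% of all probes), and 6 were higher at both (7.59%). At 28 hpf another 6 were higher with no call at 3 dpf (7.03%), and 3 were higher at 28 hpf and lower at 3 dpf (4.1%). Neither embryonic stage called 36 probes, against 33.8% of all probes. Over all 3 stages, 8 probes were lower in mutants at every stage (3.46% of all probes), 4 were higher (2.79%) and 27 were called at none (25.4%). Across the 200 probes, which are not independent replicates and were chosen on the WT side of both differences, the differences at 28 hpf and 3 dpf had a Pearson's r of -0.05 and a Spearman's rho of -0.03.

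The dependence on stage was tested directly. The genotype effect differed between 3 dpf and 28 hpf for 128 of the 200 probes (limma, adjusted p under 0.05 over all probes), against 44.7% of all probes, with 69 shifted down in mutants at 3 dpf relative to 28 hpf and 59 up. Between adult brain and 28 hpf it differed for 88 probes, against 31.9% of all probes, 71 shifted up and 17 down. Between adult brain and 3 dpf it differed for 118 probes, against 44.2% of all probes, 85 shifted up and 33 down. Each of these pairs of effects shares arrays with the choice, so the counts are a description. For the list chosen on the mean of both genotypes, 143 probes (71.5%, against 44.7% of all probes) differed between 3 dpf and 28 hpf. Of these 143, 133 were shifted down and 10 up.

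The same rule was applied to the other stages. The 200 probes peaking at 3 dpf in WT had a median mutant minus WT difference of 0.69 at 3 dpf, with 91 higher in mutants (45.5%) and 31 lower (15.5%), and the 200 highest in adult brain had 1.41, with 144 higher (72%) and 9 lower (4.5%), against 23.0% higher and 30.8% lower of all probes. At 28 hpf their medians were -0.04 and 0.16. The choice on WT arrays bears on these values too, so they are a description. A low WT mean at 3 dpf helps a probe into the adult brain list and raises its mutant minus WT difference at 3 dpf. A high WT mean at 3 dpf helps a probe into the 3 dpf list and lowers that difference. Whether these lists differ from the 28 hpf list was not tested.

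The largest changes among the 200 probes are given by probe identifier, with the intensity on every array. A_15_P676136, in place 38, had 34.8, 35.1, 35.2 and 41.3 in mutants at 28 hpf, against 1520, 1470, 1640 and 1290 in WT siblings. The groups did not overlap, and the difference of -5.33 (standard error 0.53, adjusted p = 1.4e-06 from limma) was the largest fall. At 3 dpf it was turned round, with 460, 506 and 450 in mutants and 134, 96.3 and 152 in WT siblings, a difference of 1.91 (adjusted p = 0.015 from limma). In adult brain the values were 16, 10.2 and 19 in mutants and 12.4, 125 and 154 in WT siblings, so that 1 WT brain lay among the mutant brains although limma called the difference (-2.09, adjusted p = 0.014). In mutants this probe was thus brightest at 3 dpf, and in WT siblings at 28 hpf.

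A_15_P497452, in place 62, had 2.73, 2.65, 2.55 and 2.67 in mutants at 28 hpf, close to the bottom of the scale, against 78, 82.5, 119 and 135 in WT siblings. By limma the difference was -5.25 (adjusted p = 6.9e-09, standard error 0.32). At 3 dpf both genotypes were near the bottom, with 2.46, 5.03 and 2.53 in mutants and 2.52, 2.47 and 2.76 in WT siblings. In adult brain it was the mutants that were bright, with 109, 91.3 and 258, against 12.8, 15 and 6.92 in WT siblings, a difference of 3.64 (adjusted p = 1.2e-06 from limma).

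The largest rises came at the later stages. A_15_P548522, in place 191, had 123, 236 and 147 in mutant brains, against 9.14, 11.8 and 10.2 in WT brains, a difference of 3.97 (adjusted p = 2.2e-08 from limma, standard error 0.28). At 28 hpf it was lower in mutants, with 18.5, 10.7, 16.8 and 16.1, against 62.2, 51.5, 55.7 and 54.5 in WT siblings. Its 3 dpf arrays overlapped, at 10.6 to 15 in mutants and 5.08 to 11.7 in WT siblings, with a called difference of 0.72 (adjusted p = 0.039 from limma) that was 0.11 (adjusted p = 0.47) on log2 of the intensity plus 50. A_15_P146251, in place 106, rose at 3 dpf, with 114, 139 and 109 in mutants and 6.28, 10.4 and 10.7 in WT siblings, a difference of 3.75 (adjusted p = 3.1e-09 from limma, standard error 0.24). At 28 hpf it had 12.7, 13.7, 16.4 and 17.0 in mutants and 61.9, 61.5, 63.7 and 62.1 in WT siblings, so that the genotypes were again apart and in the opposite order. All 4 probes were lower in mutants at 28 hpf and, at another stage, higher. The choice on WT arrays favours both directions, and the 4 were picked as the largest changes. Their shared pattern and the p-values of these probes are therefore a description. On log2 of the intensity plus 50, the first change given for each was -4.14, -1.53, 1.82 and 1.52, in the order named.

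**Figure D5:**
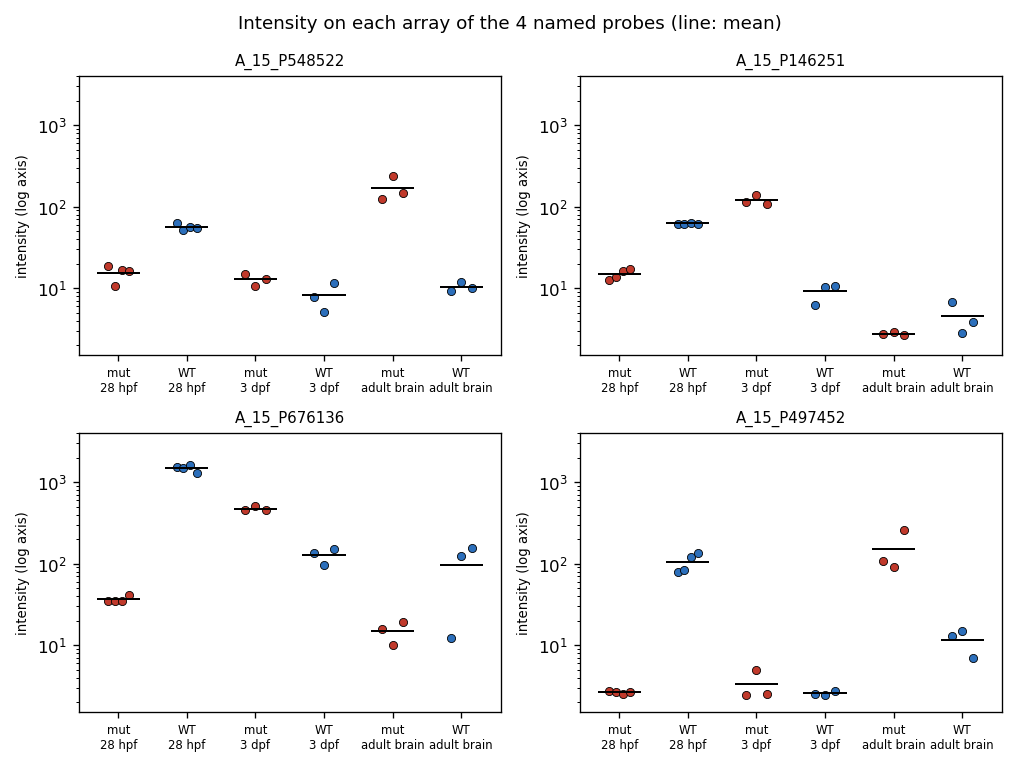
Intensity (log axis) of 4 of the 200 probes on each array, with mutants in red, WT siblings in blue and the group mean as a line. All 4 lie lower in mutants than in WT siblings at 28 hpf, while A_15_P548522 and A_15_P497452 lie higher in mutant brains and A_15_P146251 and A_15_P676136 higher in mutants at 3 dpf.

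The spread between arrays was wider for the 200 probes than for all probes. The median SD of log2 intensity within a group was 0.13 in mutants and 0.11 in WT siblings at 28 hpf, against 0.10 and 0.10 over all probes. At 3 dpf it was 0.22 in mutants and 0.20 in WT siblings, against 0.12 and 0.10 over all probes. In adult brain it was 0.29 in both genotypes, against 0.14 and 0.16 over all probes. On single arrays the median of the 200 probes lay between 4.37 and 4.57 on the log2 scale in mutants at 3 dpf, against 4.80 to 5.02 in WT siblings, and between 3.05 and 3.35 in mutant brains, against 3.26 to 3.52 in WT brains, so that the genotypes overlapped in adult brain only.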

How the data were processed

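RNA was measured on 20 single-colour Agilent zebrafish arrays. The deposited values are fluorescence intensities on a linear scale, which the authors quantile normalized across arrays. The methods state a re-annotation of the probes on danRer11, which is not used here. No slide, scan or background information was used, and batches were not tested. The number of arrays limits the precision.

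Intensities were log2-transformed with no filter and fitted with limma 3.58.1 under R 4.3.3, the model holding a mean for each of the 6 groups (14 residual degrees of freedom). Each probe had 1 spread, shared by the 6 groups, although the spread of the 200 probes was wider at the later stages. Tests were two-sided, adjusted after Benjamini-Hochberg over 43603 probes within each contrast, at 0.05. The fit was tested on simulated data with known changes. The simulated noise was independent between arrays, with the same spread at every stage for each probe. Spread that differs between stages and repeat arrays were therefore not covered. The methods chose 1 probe per gene; here probes of the same gene count separately. Named probes are the 2 largest rises and 2 largest falls among the 200 over the 3 stages, past the threshold with arrays that do not overlap. The rule for the 200 probes, the lists and the tests were chosen with earlier results of these data known. Gene lists could not be used, since probes carry no gene names.

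Arrays 1 and 1.1 at 28 hpf may be repeats of 1 sample. Over all probes they were the closest pair of their group, with an SD of log2 differences of 0.325 in mutants, against 0.337 to 0.398 for other pairs, and 0.389 in WT siblings, against 0.392 to 0.457. Over the 200 probes they were not, at 0.323 in mutants, against 0.318 to 0.455, and 0.729 in WT siblings, against 0.522 to 1.025. Among the 200, 6 probes spanned over 2 log2 units between the WT arrays and 3 between the mutant arrays. Their part in these SDs was not tested. Whether they are separate samples is not known, and they entered as separate arrays, with their average as an alternative.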

Additional observations from a re-analysis of the deposited data

Results flagged for a closer look

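The genotype effect depended on stage for 128 of the 200 probes between 3 dpf and 28 hpf, for 88 between adult brain and 28 hpf and for 118 between adult brain and 3 dpf, by the test of the difference in limma, against 44.7%, 31.9% and 44.2% of all probes. These effects share WT arrays with the choice of the probes. All 4 named probes showed such a difference for every pair of stages. For A_15_P676136 the mutant minus WT difference was higher at 3 dpf than at 28 hpf by 7.25 on the log2 scale, higher in adult brain than at 28 hpf by 3.25, and the shift of adult brain against 3 dpf was -4. For A_15_P497452 these were 5.54, 8.89 and 3.35. For A_15_P548522 they were 2.60, 5.85 and 3.25, and for A_15_P146251 they were 5.82, 1.46 and -4.36. The adjusted p was between 1.4e-09 and 0.0061. Several of these sizes rest on means near the bottom of the scale. On log2 of the intensity plus 50 the values were, in the same order, 5.71, 3.13 and -2.57 for A_15_P676136, 1.55, 3.16 and 1.61 for A_15_P497452, 0.81, 2.52 and 1.71 for A_15_P548522, and 2.31, 0.74 and -1.57 for A_15_P146251.

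Single arrays were checked at 28 hpf for the 4 named probes, the probes in places 1 to 5 and the median and mean of the 200. In mutants, A_15_P676136 had 41.3 on array 3 against 34.8 to 35.2 on the others, a gap of 0.933 of the group's range. The probe in place 3 had 1720 on mutant array 3 against 2100 to 2160, a gap of 0.861 of the range. About 1 in 20 groups would show such a gap by chance. Over the 200 probes, 20 in mutants (10%) and 16 in WT siblings (8%) had a gap past the same limit, against 7.34% in mutants and 7.78% in WT siblings over all probes.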

How the results depend on the processing

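Of 123 values under other settings, 101 stayed within 1.5 times the count reported, or within the spread between arrays for a median. The 101 include those of a second quantile normalization within each stage. The arrays were already quantile normalized, so these values repeated the reported ones and are no check of them. At 28 hpf the probes higher in mutants numbered 24 on log2 of the intensity plus 50, 29 with the stage fitted alone, 8 with arrays 1 and 1.1 averaged and 9 with a change of at least 1.5-fold, against 15. With 28 hpf fitted alone, 117 were lower, against 85. On log2 of the intensity plus 50 the list shared 104 probes with the main one, and against unused WT arrays at 28 hpf 22 were higher and 96 lower in mutants. With adult brain fitted alone, 18 probes were higher and 14 lower. The shares of all probes called under these settings were not computed. The median difference at 28 hpf was -0.36 for the 400 highest scores, and that at 3 dpf -0.81 when group means were first raised to at least 8.52, the 10th percentile of intensities.

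Lists chosen on other arrays, added after the data were seen, moved the most values. On the mean of both genotypes, 23 probes were higher and 59 lower in mutants at 28 hpf (median -0.23), and 7 higher and 154 lower at 3 dpf (median -1.34). In adult brain 18 of that list were higher (9%) and 41 lower (20.5%). On mutant arrays, 30 were higher and 52 lower at 28 hpf (median -0.12), and 3 higher and 162 lower at 3 dpf (median -1.56). Of all probes, 18.7% were higher and 15.8% lower at 28 hpf, 23.0% and 30.8% at 3 dpf, and 17.6% and 17.8% in adult brain. The cause of these moves was not tested.

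When single arrays were left out, counts ran as follows: 11 to 16 probes higher and 76 to 88 lower in mutants at 28 hpf, 27 to 36 higher and 92 to 101 lower at 3 dpf, and 29 to 36 higher and 22 to 36 lower in adult brain. With a replicate block the counts were 17 and 89, 35 and 97, and 31 and 38 in the same order, all within 1.5 times. Shares of all probes were not computed for any of these fits. The numbers share no stated pairing, and deviations from the group means correlated at -0.058 to 0.036 between arrays of the same number.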
